A study of Mus musculus with 9 samples.

Results

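The 9 genes described here are core components of the hedgehog signalling pathway in the mouse prostate. They are the ligands Shh and Ihh, the receptor Ptch1, the transducer Smo, the extracellular inhibitor Hhip, the intracellular inhibitor Sufu, and the transcription factors Gli1, Gli2 and Gli3. They were taken by symbol from a table of 54532 genes. Each symbol matched 1 gene, and all 9 passed the low-count filter that left 16836 genes for testing. Prostate tissue was compared between 3 genotypes at Srd5a2, which encodes the type II 5-alpha-reductase that makes dihydrotestosterone from testosterone: wild type (WT), Srd5a2+/- (Het) and Srd5a2-/- (KO). The mice came from crosses of Het males with wild-type C57BL6 females and further breeding of their offspring. Bulk polyA-enriched RNA was sequenced as 3 libraries per genotype. The sources used here give neither the lobes dissected nor the ages of the mice. Nothing in the labels ties each library to an animal of its own, so the p-values below measure only the spread between these libraries, which may be technical.

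Hedgehog ligands are secreted proteins that bind Ptch1 and so release Smo, which Ptch1 otherwise holds inactive. Active Smo, working at the primary cilium, frees the Gli proteins from Sufu, and they then switch on target genes. Gli1, Ptch1 and Hhip are themselves such targets, so their transcripts are commonly read as a gauge of signalling. In the developing prostate, Shh is made by the epithelium of the urogenital sinus and its buds, and the responding cells, which express Gli1 and Ptch1, lie in the surrounding mesenchyme.

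Ptch1 and Hhip are the target genes of the pathway among the members with a RefSeq promoter window, and the 250 bases upstream of their start sites are shown because the read-outs described below turn on them. RefSeq windows on GRCm38.p6 were matched for 7 members, all but Shh and Gli1. The Ptch1 window is chr13:63565736-63565985 on the minus strand, upstream of a start site that lies inside the gene as deposited. The Hhip window is chr8:80058009-80058258, also on the minus strand. Both are printed 5′ to 3′ in the direction of the gene, with capitals marking CCACCC or its reverse complement GGGTGG, the core of the sequence that Gli proteins bind.
Ptch1: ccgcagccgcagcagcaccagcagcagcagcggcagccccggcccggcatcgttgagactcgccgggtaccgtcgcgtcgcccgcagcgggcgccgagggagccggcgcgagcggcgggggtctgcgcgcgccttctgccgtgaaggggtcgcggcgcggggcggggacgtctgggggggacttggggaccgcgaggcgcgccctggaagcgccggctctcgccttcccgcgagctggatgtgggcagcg
Hhip: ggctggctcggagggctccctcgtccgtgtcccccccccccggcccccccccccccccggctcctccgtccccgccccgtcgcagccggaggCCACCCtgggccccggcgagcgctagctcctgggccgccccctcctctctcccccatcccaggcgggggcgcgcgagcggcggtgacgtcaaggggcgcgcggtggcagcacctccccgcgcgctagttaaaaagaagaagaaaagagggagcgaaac
The full binding consensus GACCACCCA, searched on both strands, was in none of the 7 windows of 300 bases, exactly or with 1 mismatch. Of all 32851 promoter windows of that length, 0.253% held an exact match and 6.74% a match with at most 1 mismatch. The shorter core, which lies inside the consensus, was searched after that result was known. It occurred in the upstream 250 bases once in Hhip, Gli3 and Smo, in 2 places in Gli2 and Ihh, and not in Ptch1 or Sufu, against 28.1% of all windows with at least 1. A GC box, GGGCGG or its reverse complement CCGCCC, occurred in 6 of the 7, including Ptch1 and Hhip, and in 32.7% of all windows. The 300-base windows of the 7 members were 56.3% (Sufu) to 76.3% (Ptch1) G and C. The shares over all windows were not matched for base composition. The motif matches are matches of letters, and no binding was measured.

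Total counts ran from 16233392 to 24017791 per library. Srd5a2 was at 0.51 to 1.15 CPM (counts scaled to a common library size) in the libraries labelled KO, 2.30 to 8.81 in WT and 2.37 to 5.19 in Het (KO against WT, log2 fold change -2.67, 95% interval -4.06 to -1.28, edgeR adjusted p = 0.9996). Sbp, a secretory gene of the ventral lobe, was nearly absent from WT libraries 1 and 3 and Het library 2, at 0.99 to 16 CPM, against at least 34372 CPM in the other 6. Prostate secretory luminal markers were present in every library, with a summed level of 5024 to 178480 CPM and no marker at 0. Genes near the level of the rarer members were detected less evenly in Het. Among 2392 genes with a mean of 1 to 3 CPM, a Het library had 0 reads for 10.9% to 12.6%, WT library 3 for 7.53% and the remaining 5 libraries for 0.125% to 2.26%.

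Level per length was compared in FPKM (fragments scaled for gene length and library size) over all 9 libraries. Smo was highest at 4.61 ± 1.09 FPKM, followed by Shh at 4.38 ± 2.16, Sufu at 3.11 ± 0.315, Ptch1 at 1.99 ± 0.535 and Hhip at 1.59 ± 0.760 (SD, n = 9 each). Ihh followed at 0.600 ± 0.406 FPKM, Gli1 at 0.509 ± 0.348, Gli3 at 0.365 ± 0.136 and Gli2 at 0.237 ± 0.170. The neighbours Smo and Shh, Shh and Sufu, Ptch1 and Hhip, and each successive pair from Ihh to Gli2 were closer than the larger of their SDs. Among all tested genes, 59.0% had a mean FPKM no higher than that of Smo and 7.97% no higher than that of Gli2. The most even member was Sufu, whose highest library was 1.36 times its lowest in CPM, against 6.05 times for Gli1 and 9.30 times for Gli2.

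**Figure D1:**
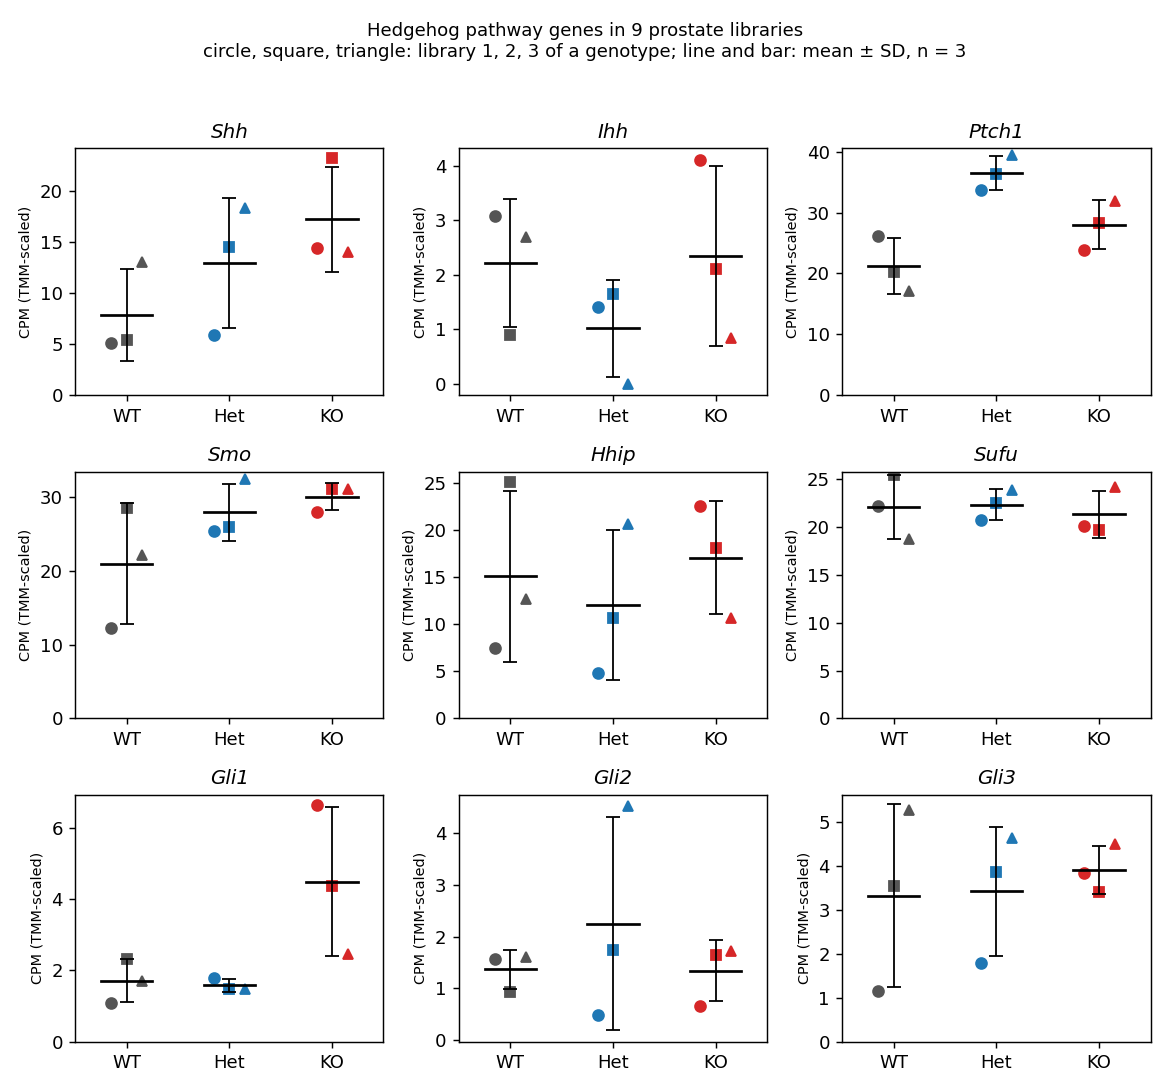
TMM-scaled CPM of the 9 members in each library (points; circle, square and triangle are libraries 1, 2 and 3 of a genotype), with the mean and SD of 3 libraries (black line and bar). The KO libraries lie above the WT libraries for Shh and Gli1, the Het libraries lie above all others for Ptch1, and Sufu is at 18.7 to 25.4 CPM throughout.

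Shh (ENSMUSG00000002633, chromosome 5, 28456815 to 28467256 on GRCm38), the main hedgehog ligand of the prostate epithelium, stood at 5.07, 5.41 and 13.0 CPM in WT libraries 1 to 3. It was at 5.89, 14.5 and 18.4 CPM in Het and 14.4, 23.2 and 14.1 CPM in KO. The KO libraries were all above the WT libraries, by a narrow margin over WT library 3, while the Het libraries overlapped both, with Het library 1 among the WT values and Het library 3 above KO libraries 1 and 3. KO exceeded WT by 1.14 on the log2 scale with SE 0.49 (95% interval 0.04 to 2.23, n = 3 per group), and the edgeR adjusted p over all genes was 0.9996. It was 1.71 without WT library 3 and 0.06 with a skeletal muscle score as covariate, and the adjusted p ran from 0.28 to 1 over the alternatives. The score was 1.45 to 5.25 in KO and -2.59 to 1.89 in WT, so the covariate fit can hardly separate it from genotype. Het against WT was 0.72 (SE 0.49) and KO against Het 0.41 (SE 0.48), both within the spread between libraries.

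Of the cell type markers, the summed proximal luminal list, the summed seminal vesicle list and the skeletal muscle score were lowest in the libraries low in Shh. The 3 lowest in Shh, WT 1, WT 2 and Het 1, were the 3 lowest in proximal luminal markers, with summed levels of 957, 503 and 267 CPM against 1606 to 4475 CPM in the other 6. Clu supplied most of these sums, such as 4247 of 4475 CPM in Het library 2. In KO against WT the other 6 of these 7 markers had every KO library above every WT library, where 14.2% of all genes did not overlap in either direction. Seminal vesicle markers summed to 72239, 31075 and 6595 CPM in WT 1, WT 2 and Het 1, against 95066 to 359197 CPM elsewhere. Svs2 supplied 230595 of the 359197 CPM in Het library 2. Single members did not all follow the sum. WT library 2 exceeded Het library 3 in Svs1 (255 against 2.65 CPM), Svs3a (97.7 against 1.99), Svs4 (2866 against 658) and Svs6 (264 against 9.27). It was lower than Het library 3 in Svs2, Svs5, Pate4 and Pax2. The same 3 libraries were the lowest in the skeletal muscle score, the mean log2 CPM of the skeletal muscle list less its mean over libraries, at -2.59, -1.99 and -2.80. By the summed CPM of that list they were not. WT library 2 was then at 682 CPM, above Het libraries 2 and 3 at 674 and 554 CPM. KO library 2, highest in Shh, had the highest skeletal muscle score (5.25), with Het libraries 2 and 3 at -1.88 and -1.86 despite 14.5 and 18.4 CPM of Shh. The fast myosin Myh4 was at 0 in WT libraries 1 and 2 and in all Het libraries, and reached 1078 CPM in KO library 2. The urothelium markers went different ways among themselves: in Het library 1, Upk1a was at its highest of the 9 libraries, 289 CPM, while Upk2 was at its lowest, 1.73 CPM, and Upk3a at 0. The part of these other cell types in the Shh values was not tested, and in bulk tissue fewer cells of a type cannot be told apart from less RNA per cell.

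**Figure D2:**
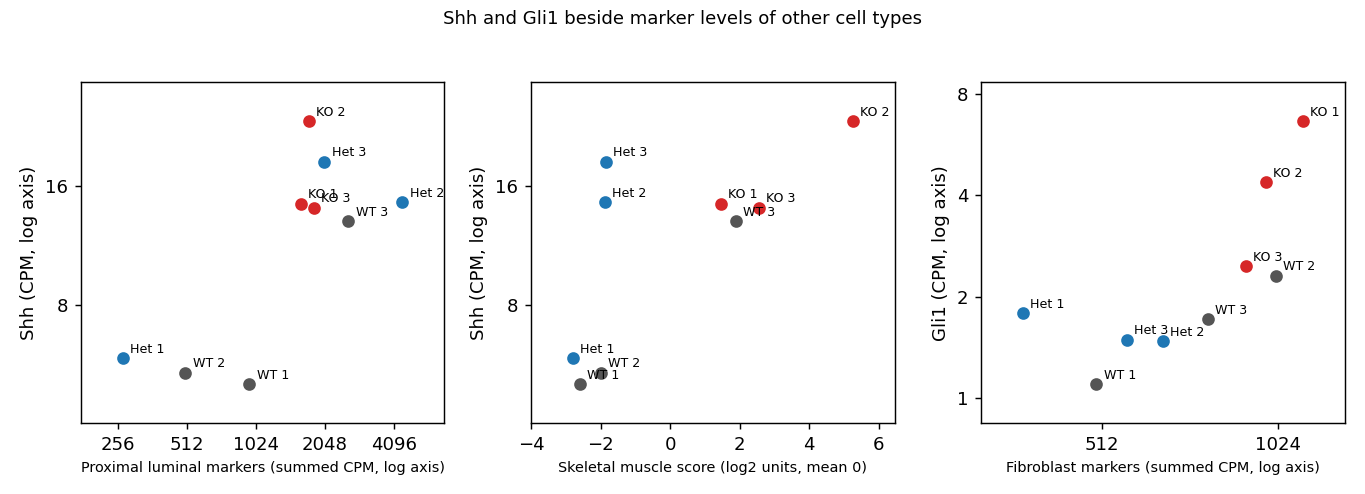
Shh in CPM against the summed CPM of 7 proximal luminal markers (left) and against the skeletal muscle score (middle), and Gli1 in CPM against the summed CPM of 8 fibroblast markers (right), 1 labelled point per library. WT 1, WT 2 and Het 1 are lowest in Shh, in proximal luminal markers and in the skeletal muscle score, and the KO libraries hold 904 to 1131 CPM of fibroblast markers.

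Ihh (chromosome 1, 74945315 to 74951672), the second ligand, best known from cartilage and gut, was a rare transcript. It was at 3.09, 0.89 and 2.70 CPM in WT, 1.41, 1.65 and 0 in Het, and 4.12, 2.10 and 0.84 CPM in KO. The genotypes overlapped throughout. Het library 3 had 0 reads, which allows up to 0.17 CPM by 3 counts, a floor that covers counting error only, and 12.6% of genes averaging 1 to 3 CPM were also at 0 in that library. Ihh did not follow Shh: KO library 3 had 14.1 CPM of Shh with the lowest Ihh of its genotype, and Het library 3 had 18.4 CPM of Shh with none of Ihh. The log2 fold changes were 0.08 (SE 1.14) in KO against WT and -1.11 (SE 1.16) in Het against WT, with intervals of -2.47 to 2.63 and -3.71 to 1.49 that leave room for large changes of either sign.

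Ptch1 (ENSMUSG00000021466, chromosome 13, 63508328 to 63573598), the receptor that restrains Smo and is itself a target gene, was highest in Het rather than in KO. It stood at 33.8, 36.4 and 39.5 CPM in Het, 26.2, 20.2 and 17.1 in WT, and 23.9, 28.3 and 32.0 in KO. The Het libraries lay above every other library, and the KO and WT libraries overlapped. The Het libraries exceeded WT by 0.79 on the log2 scale (SE 0.20, 95% interval 0.34 to 1.23, n = 3 per group; edgeR adjusted p = 0.40), and it ranked 113 of 16836 by p. DESeq2 and limma voom with library quality weights did call it (adjusted p = 0.0362 and 0.0337). Of all 16836 genes, they called 205 and 699 in the same comparison. Without the 3 libraries low in Sbp, which leaves WT library 2 as the only WT library, the value was 0.85. In KO against WT the value was 0.41 (SE 0.20, interval -0.04 to 0.85), and in KO against Het it was -0.38 (SE 0.20, interval -0.82 to 0.06).

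Smo (chromosome 6, 29735503 to 29761365), the membrane protein that carries the signal into the cell, was even across libraries except in WT. It was at 12.2, 28.5 and 22.1 CPM in WT, 25.5 to 32.5 CPM in Het and 28.0 to 31.2 CPM in KO. WT library 1 stood lowest, and WT library 2 was level with the other genotypes. KO against WT was 0.52 on the log2 scale (SE 0.28, edgeR adjusted p = 0.9996), 0.25 without WT library 1 and 0.08 without the 3 libraries low in Sbp, where the only WT library left is library 2, the highest of WT in Smo. Het against WT was 0.41 (SE 0.28), and 0.14 and 0.02 under the same omissions.

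The inhibitors did not differ between genotypes beyond the spread of libraries. Hhip (chromosome 8, 79965851 to 80058006), a cell-surface protein that binds hedgehog ligands and a target gene, was at 7.43, 25.1 and 12.7 CPM in WT, 4.81, 10.7 and 20.6 in Het and 22.5, 18.0 and 10.6 CPM in KO. Each genotype thus held both low and high libraries, and the KO against WT value was 0.18 (SE 0.57, interval -1.12 to 1.47). Sufu (chromosome 19, 46396896 to 46488804), which holds Gli proteins in the cytoplasm, had mean levels of 21.4 ± 2.44 CPM for KO, 22.4 ± 1.58 for Het and 22.1 ± 3.36 for WT (SD, n = 3 per genotype). Its intervals were the tightest of the members in KO against WT (-0.47 to 0.37) and in Het against WT (-0.40 to 0.43).

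Gli1 (ENSMUSG00000025407, chromosome 10, 127329882 to 127341974), the transcription factor that is both activator and target, was highest in KO. It was at 1.10, 2.31 and 1.71 CPM in WT, 1.78, 1.47 and 1.49 in Het, and 6.65, 4.38 and 2.46 CPM in KO. The KO libraries were above all WT and Het libraries, KO library 3 only just above WT library 2. The log2 fold change was 1.39 in KO against WT (SE 0.54, interval 0.18 to 2.61) and 1.5 in KO against Het (SE 0.55, interval 0.28 to 2.72). Neither passed over all genes (edgeR adjusted p = 0.9996 and 0.71), and over the alternatives the adjusted p ran from 0.33 to 1 and from 0.097 to 1. These values rest on 21 to 121 reads per library. Without KO library 1 they were 1.0 and 1.11.

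Fibroblast markers, which stand for part of the stroma, had summed levels of 904 to 1131 CPM in KO, 375 to 652 in Het and 501 to 1016 in WT. The 2 libraries highest in Gli1, KO 1 and KO 2, ranked 1 and 3 of 9 in these markers, and none of the 8 markers was at 0 in any library. In KO against Het all 8 were positive and 7 had an unadjusted p under 0.05, beside 6.22% of all genes. In KO against WT 7 were positive and 0 had such a p, beside 3.57% of all genes. Het library 1 had the lowest summed level and an intermediate Gli1 value. Smooth muscle markers, for another part of the stroma, did not follow the fibroblast markers. Their summed levels were 4335 to 6057 CPM in KO, 1188 to 7646 in Het and 3230 to 6694 in WT. In KO against Het 2 of these 8 markers were positive and 6 negative, with a median of -0.08. The part of stromal content in the Gli1 values was not tested.

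Gli2 and Gli3 are the factors that receive the signal first, Gli2 mainly as an activator and Gli3 mainly as a repressor. Neither differed between genotypes beyond the spread between libraries. Gli2 (chromosome 1, 118834132 to 119053619) was at 1.57, 0.93 and 1.61 CPM in WT, 0.49, 1.75 and 4.53 in Het and 0.66, 1.65 and 1.73 CPM in KO. Het held both its lowest and its highest library, and KO library 1, highest in Gli1, was second lowest in Gli2. Gli3 (chromosome 13, 15463235 to 15730026) was at 1.15, 3.55 and 5.29 CPM in WT, 1.78, 3.86 and 4.64 in Het and 3.84, 3.41 and 4.50 CPM in KO. The KO against WT values were -0.02 (SE 0.84) and 0.23 (SE 0.59), within the spread between libraries.

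Across the members, no gene passed over all genes in any of the 3 comparisons by edgeR, and neither did any other: the share called at an adjusted p under 0.05 was 0% of 16836 genes each time. At an unadjusted p under 0.05 stood 2 of 9 members in KO against WT (Shh and Gli1), where 3.57% of all genes did. In Het against WT 1 of 9 did (Ptch1, with 9.04% of all genes), and in KO against Het 1 of 9 (Gli1, with 6.22%). Libraries of the 2 genotypes did not overlap for the same 2 members in KO against WT (14.2% of all genes) and for Ptch1 in Het against WT (13.3%). In KO against Het they did not overlap for 2 members, Gli1 above and Ptch1 below (11.9%). The members' median log2 fold change was 0.23 in KO against WT, with 7 of 9 positive, beside a median of 0.01 over all genes with 8512 positive. It was 0.04 in Het against WT and 0.19 in KO against Het. These comparisons share libraries, so their values are not independent of each other.

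**Figure D3:**
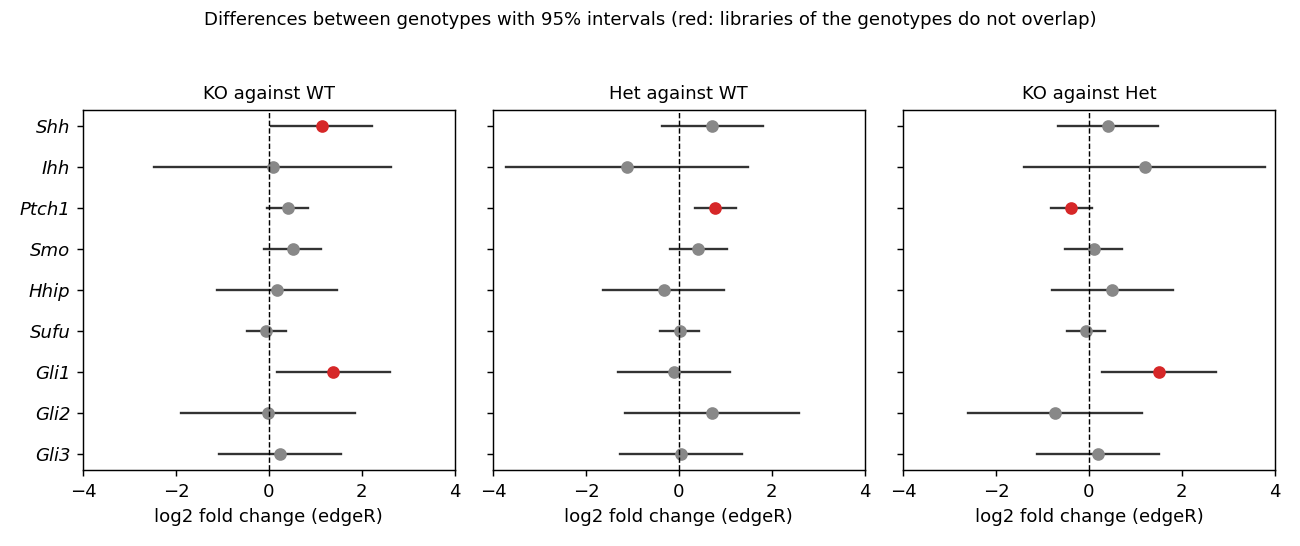
Log2 fold change of each member (points) with its 95% interval (bars) in the 3 comparisons, from edgeR. Red points mark members whose libraries do not overlap between the genotypes compared, which are Shh and Gli1 in KO against WT, Ptch1 in Het against WT, and Gli1 and Ptch1 in KO against Het.

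The target genes did not move as a unit across libraries. Gli1 and Ptch1 had a Pearson r of -0.22 (exact permutation p = 0.574, two-sided) and a Spearman rho of -0.30 (exact permutation p = 0.437) in log2 CPM over 9 libraries. Without the 2 libraries farthest from the median of Gli1, KO 1 and KO 2, r was -0.19. Gli1 and Hhip had r = 0.53 (exact permutation p = 0.141) and rho = 0.43 (exact permutation p = 0.250), and r = 0.31 without the same 2 libraries. Ihh and Gli1 had r = 0.33 (exact permutation p = 0.368) and rho = 0.08 (exact permutation p = 0.843), and r = -0.34 without Het library 3 and KO library 1, so the positive value rested on those. Adjusted over the 6 pairs computed, the lowest permutation p was 0.485 for r and 0.524 for rho.

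Shh fell into a low group of 3 libraries (5.07 to 5.89 CPM) and a high group of 6 (13.0 to 23.2 CPM). Over all 9, Shh and Gli1 had r = 0.43 (exact permutation p = 0.243) and rho = 0.30 (exact permutation p = 0.437). Shh and Ptch1 had r = 0.26 (exact permutation p = 0.487) and rho = 0.48 (exact permutation p = 0.194). Shh and Hhip had r = 0.44 (exact permutation p = 0.226) and rho = 0.32 (exact permutation p = 0.410). Without WT libraries 1 and 2, farthest from the median of Shh, r was 0.31, -0.02 and 0.85. Het library 1 was then the only library left of the low group. It was also the lowest of all in Hhip, at 4.81 CPM, so the value of 0.85 leans on that library. The relation of Shh to the targets was also examined within the 6. There Shh and Gli1 had r = 0.24 (exact permutation p = 0.663) and rho = -0.03 (exact permutation p = 1), Shh and Ptch1 r = 0.38 (exact permutation p = 0.451) and rho = 0.54 (exact permutation p = 0.297), and Shh and Hhip r = 0.50 (exact permutation p = 0.343) and rho = 0.37 (exact permutation p = 0.497). Within the 6, adjusted over these 3 pairs, the lowest permutation p was 0.663 for r and 0.746 for rho. The 6 were chosen by their Shh values and so span less of its range. Het library 2 was level with KO libraries 1 and 3 in Shh (14.5 against 14.4 and 14.1 CPM), and Het library 3 was above them at 18.4 CPM. Both had less Shh than KO library 2. Het libraries 2 and 3 had the most Ptch1, with Gli1 at 1.47 and 1.49 CPM.

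**Figure D4:**
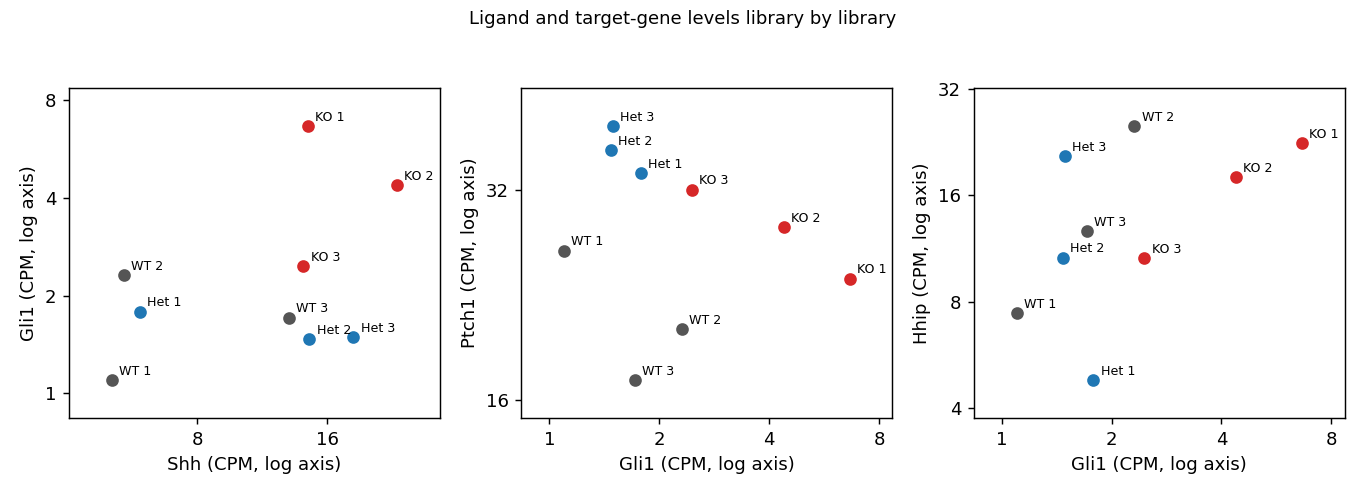
Levels in CPM on log axes, 1 labelled point per library: Gli1 against Shh (left), Ptch1 against Gli1 (middle) and Hhip against Gli1 (right). The Het libraries combine the highest Ptch1, 33.8 to 39.5 CPM, with Gli1 at 1.47 to 1.78 CPM, while KO 1 and KO 2 combine the highest Gli1 with Ptch1 at 23.9 and 28.3 CPM.

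Among genes for ligand processing and release, none of 7 tested had an unadjusted p under 0.05 in any comparison, beside 3.57% to 9.04% of all genes. The median in KO against WT was 1.3, with 5 of 7 positive, beside a median of 0.01 over all genes. The list holds rare genes whose fold changes are uncertain: Dhh, Scube3 and Scube1 averaged 0.13, 0.24 and 0.70 CPM in WT. The list's median was 0.25 in Het against WT and 0.27 in KO against Het. Dhh, the third hedgehog ligand and a product of Schwann cells, was at 0.63 to 1.14 CPM in KO, 0 to 0.22 in WT, and 0, 2.80 and 0 in Het (KO against WT 2.70, SE 1.93). Schwann cell markers had summed levels of 96 to 129 CPM in KO, 65.0 to 76.6 in Het and 46.3 to 72.3 in WT, and their part in the Dhh values was not tested. Disp2, a relative of the ligand-releasing protein Disp1, was at 5.22 to 13.7 CPM in KO, 2.09 to 6.12 in WT and 0.32 to 17.5 in Het, which held both the lowest and the highest library (KO against WT 1.46, SE 1.04). Scube2, a secreted protein that helps ligands leave the cell, was on the lower side in KO at 3.82 to 5.23 CPM against 3.58 to 18.9 in WT (-1.08, SE 0.55), where the groups overlapped.

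Of the 5 tested receptors and co-receptors reported here, 1 had an unadjusted p under 0.05 in KO against WT, 1 in Het against WT and 0 in KO against Het. The shares of all genes were 3.57%, 9.04% and 6.22% in the same order. Cdon, a cell-surface co-receptor that presents ligand to Ptch1, was at 17.9, 18.7 and 21.6 CPM in WT, 35.1, 29.0 and 23.5 in Het and 22.2, 27.3 and 35.9 in KO. Both mutant genotypes lay wholly above WT, Het by 0.59 and KO by 0.55 on the log2 scale (SE 0.23 for both), and neither passed over all genes (edgeR adjusted p = 0.49 and 0.9996). In either direction, 13.3% of all genes did not overlap in Het against WT and 14.2% in KO against WT. Gpc3, a membrane proteoglycan that competes for ligand, was at 3.87 to 9.12 CPM in KO and 2.62 to 6.88 in WT (0.57, SE 0.51). The median of the 5 was 0.23 in KO against WT, -0.03 in Het against WT and 0.25 in KO against Het.

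The machinery between Smo and the Gli proteins had medians near 0 in each comparison. Of 23 genes tested, none had an unadjusted p under 0.05 in KO against WT or in Het against WT, and the medians were -0.01 and 0.08, with -0.02 in KO against Het. In KO against Het 2 did. The shares of all genes were 3.57% in KO against WT, 9.04% in Het against WT and 6.22% in KO against Het. Both genes were lower and were named after their values were seen: Ift172, a protein of ciliary transport (-0.41, SE 0.14), and Cul3, a ubiquitin ligase subunit that acts with Spop (-0.35, SE 0.14). The 3 with the smallest p in KO against WT were Evc (0.72, SE 0.48) and Evc2 (0.57, SE 0.42), which sit with Smo at the ciliary base, and Kif7, a ciliary kinesin that regulates Gli proteins (0.99, SE 0.81). Evc was at 7.27 to 12.1 CPM in KO against 4.29 to 7.10 in WT, and Evc2 and Kif7 overlapped between those genotypes.

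Of 15 genes reported elsewhere to respond to hedgehog signalling, 11 were tested, and 1 had an unadjusted p under 0.05 in KO against WT, 1 in Het against WT and none in KO against Het. The shares of all genes were 3.57%, 9.04% and 6.22% in the same order. Ccnd2, a cyclin of the G1 phase, was at 14.7, 32.7 and 24.2 CPM in WT, 19.1, 38.7 and 40.0 in Het and 41.2, 53.5 and 49.5 in KO. The KO libraries lay above all others, and the KO against WT value was 1.01 (SE 0.33, edgeR adjusted p = 0.9996). In either direction, 14.2% of all genes did not overlap in KO against WT and 11.9% in KO against Het. Foxf1, a forkhead factor of hedgehog-responsive mesenchyme, was at 1.08 to 6.48 CPM in Het, 0 to 1.07 in WT and 0.89 to 2.73 in KO, with values of 2.60 (SE 1.14) in Het against WT and 1.68 (SE 1.12) in KO against WT. Bmp4, a stromal growth factor that restrains prostate budding, was at 3.24 to 4.57 CPM in WT, 1.24 to 7.22 in Het and 4.50 to 9.23 in KO (KO against WT 0.80, SE 0.58). The list's median was 0.60 in KO against WT with 8 of 11 positive, 0.30 in Het against WT and 0.39 in KO against Het, beside medians of 0.01 in KO against WT and 0.02 in KO against Het over all genes.

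**Figure D5:**
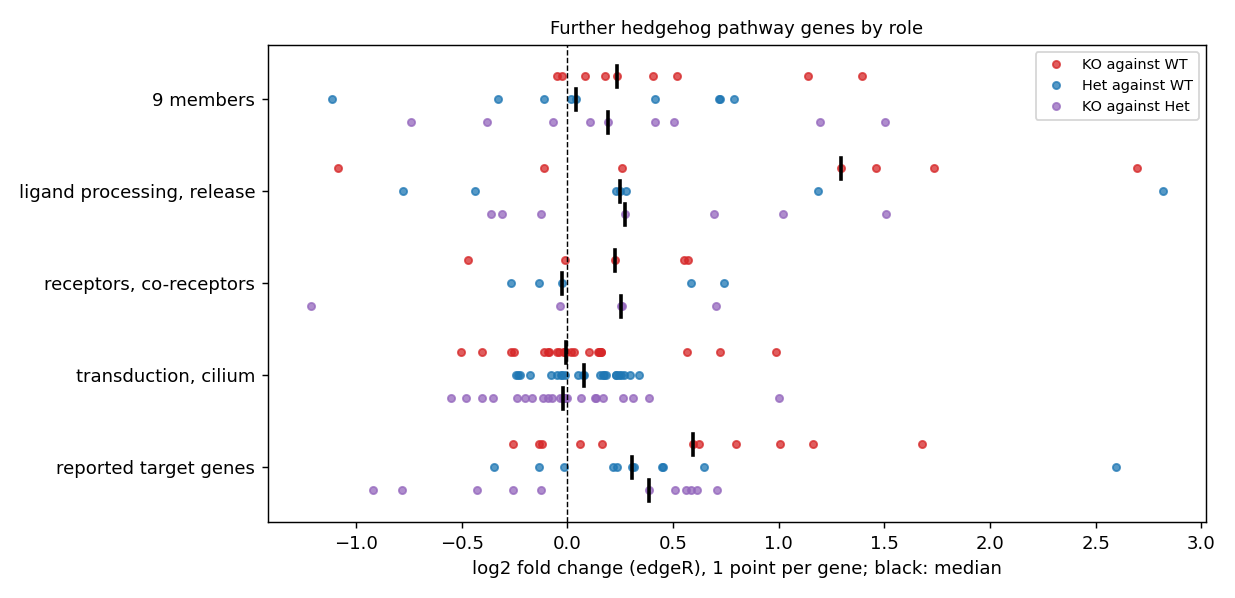
Log2 fold changes from edgeR of the 9 members and of 4 further groups of pathway genes, 1 point per gene reported here, with the median of each group as a black bar; red is KO against WT, blue Het against WT and purple KO against Het. The transduction genes cluster around 0 with medians between -0.02 and 0.08, and the ligand processing genes spread from -1.08 to 2.70 in KO against WT.

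The genes whose levels were most like those of Gli1 and Shh over the 9 libraries were ranked by Pearson r of log2 CPM among 14613 tested genes averaging at least 1 CPM, as a description with libraries as points. For Gli1 these were Egflam, an extracellular matrix protein (r = 0.94), Igfbp3, a secreted binding protein of insulin-like growth factors (0.94), Grrp1 (0.94), Tmem246 (0.92) and Eng, an endothelial co-receptor for TGF-beta (0.92). Igfbp3 was at 58.1, 52.4 and 28.2 CPM in KO libraries 1 to 3, in the same order as Gli1, and at 8.32 to 24.1 CPM elsewhere. For Shh the nearest were Fat4, a large cadherin (r = 0.97), Tmem40 (0.96), Epm2a, the glycogen phosphatase laforin (0.95), and Nccrp1 (0.94). None of these 9 genes is in the pathway lists.

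Reads of overlapping genes could enter these counts, since the sources used here do not state whether counting used strand. Shh shares 446 exon bases with the antisense gene 9530036O11Rik (129 reads in all libraries together) and 361 with the lincRNA Gm26894 (199 reads), both on the opposite strand. Gli1 shares 62 exon bases with Arhgap9 (452 reads) and 265 with Gm47200, which had 0 reads. Hhip shares 175 with Gm27820, which also had 0 reads, and Gli3 188 with Gm6556 (19 reads). For the other 5 members no exon bases are shared with another gene in GENCODE vM21, where all 9 members have the deposited coordinates.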

How the data were processed

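The authors deposited raw read counts per gene and FPKM values per library, per the file headers and values, with GRCm38 (mm10) as the build per the submitters' processing notes. The sources used here name no aligner or counter and do not state whether strand was used. The deposited FPKM values were used only to compare levels between genes. Genotypes came from library names, and replicate numbers follow accession order. For tests of the counts, edgeR 4.0.16 under R 4.3.3 was run with filterByExpr, TMM scaling and 1 robust quasi-likelihood model of all 9 libraries with genotype as factor. P-values were adjusted by Benjamini-Hochberg over all genes tested and called under 0.05; intervals are at 95%. CPM uses TMM-scaled sizes, and log2 CPM a prior count of 2. The fit was also run on simulated data with the same spread for every gene, which does not show how it performs on these libraries. No 2 libraries were near-duplicates (lowest chi-square per degree of freedom 40.0).

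The members and lists were chosen with earlier results of these data known. Besides the 9 members, the text names the 3 genes with the smallest p in KO against WT per pathway list and the 5 genes most like Gli1 and Shh. Of the genes so chosen, 2 are not reported here. DESeq2 1.42.0 and limma 3.58.1 were alternatives, with other scalings and filters, single libraries left out and a skeletal muscle covariate. The Ihh count of 0 in 1 library was given a floor of 3 counts, and other zeros are printed as 0.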

Additional observations from a re-analysis of the deposited data

How the results depend on the processing

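No hedgehog member was called under any alternative but 2, DESeq2 and limma voom with quality weights, each of which called 1 in Het against WT, Ptch1. Over all genes DESeq2 called 14 in KO against WT, 205 in Het against WT and 169 in KO against Het, and voom with quality weights 699 in Het against WT. Single calls came from the fit of only the 2 genotypes compared (1 in KO against WT) and without the 3 libraries low in Sbp (1 in Het against WT and 1 in KO against Het), and no low-count filter gave 2 in KO against Het. Leaving out 1 library gave 0 to 1, 0 to 258 and 0 to 18 calls in the 3 comparisons, the highest each time without Het library 1. Of 486 recomputed log2 fold changes of the members, 445 kept their direction and side of the threshold, 2 (Ptch1) became calls and 39 changed sign. The sign changes touched 16 of 27 values, none of them Shh or Gli1 in KO against WT or Ptch1 in any comparison.

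With the skeletal muscle score as covariate, KO against WT was -0.43 for Gli3 and 0.16 for Sufu, and Het against WT -0.0408 for Sufu. KO against Het was -1.14 for Shh, -0.83 for Gli3, -0.17 for Smo and 0.20 for Sufu. The score was 1.45 to 5.25 in KO and -2.80 to -1.86 in Het, without overlap. The KO against Het values with this covariate are therefore extrapolated, and score and genotype cannot be told apart there. With voom quality weights, Gli2 was 0.24 in KO against WT, Hhip 0.25 in Het against WT, and in KO against Het Gli3 was -0.21, Smo -0.0251 and Hhip -0.0545. Without the 3 libraries low in Sbp, which leaves 1 WT library that is assumed to vary like the others, KO against WT was 0.53 for Gli2 and -0.56 for Hhip, and Het against WT -0.15 for Gli3 and -0.20 for Sufu. At least 1 CPM in 3 libraries gave 0.0184 for Gli2 in KO against WT. Leaving out 1 library in turn, KO against WT ran from -0.25 to 0.30 for Gli2, -0.17 to 0.72 for Gli3, -0.15 to 0.79 for Hhip, -0.60 to 0.48 for Ihh and -0.16 to 0.11 for Sufu. Het against WT ran from -0.35 to 0.22 for Gli1, -0.29 to 1.19 for Gli2, -0.37 to 0.53 for Gli3, -0.96 to 0.31 for Hhip and -0.0874 to 0.18 for Sufu. KO against Het ran from -1.21 to 0.27 for Gli2, -0.11 to 0.47 for Gli3 and -0.17 to 0.00251 for Sufu. The cause of these changes was not tested. The 6 pairs correlated over 9 libraries kept their sign and passed no threshold under another scaling, another prior count and without each library in turn; the correlations within 6 libraries were not rerun. Over 9 libraries, which mix the low and high groups of Shh, Shh and Hhip had r = 0.44, and r = 0.84 without WT library 2 (adjusted exact permutation p = 0.0571). No paired analysis was possible because the labels give no replicate numbers that the genotypes share. Ihh rests on 0 to 75 reads per library and Gli1 on 21 to 121; how much of their spread is counting error was not tested.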
